A study of Mus musculus with 3 samples.

Results

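The microRNA miR-21, written miR-21a in the mouse, was followed in small RNA libraries from mouse liver after a sham operation, after warm ischemia and after ischemia with reperfusion. It was taken by name as 2 of the 1908 mature microRNAs listed in the deposited counts, the arms mmu-miR-21a-5p and mmu-miR-21a-3p. Reads were found for 851 of the 1908 and for both arms in every library. All mice were male C57BL/6J, an inbred laboratory strain, aged 8 to 10 weeks, and all were fasted, anaesthetised with chloral hydrate and opened by laparotomy. The Sham mice then waited 90 min without clamping. In the WI mice the vessels and bile duct of the left and median lobes were clamped for 90 min. In the IR mice the same clamping was followed by 120 min of restored flow. Each group held 6 mice and gave 1 library, and whether a library pooled several mice is not stated. IR livers were taken later after surgery than Sham and WI livers, so reperfusion and time since surgery cannot be told apart.

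A microRNA hairpin is cut into a duplex, and usually one strand, the guide, is loaded into an Argonaute protein while the other, the passenger, is degraded. The guide pairs with messenger RNAs mainly through its seed, bases 2 to 8. For miR-21 the guide is the 5p arm. It is transcribed under factors such as STAT3 and AP-1, is known to rise in injured, inflamed, regenerating and fibrotic tissue, and represses targets such as PDCD4. It is made by hepatocytes and also by leukocytes and stromal cells, so in whole liver a change in cell makeup and a change in level per cell cannot be told apart.

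Both arms come from 1 hairpin of 92 bases on chromosome 11, 86397569 to 86397660 on the minus strand of NCBIM37 (mm9). The hairpin lies on the same strand as Vmp1, a gene for a membrane protein of autophagy, inside the 3′ untranslated part of its last exon (86397367 to 86398953). The 5p arm covers 86397622 to 86397643 and the 3p arm 86397584 to 86397605. In the minimum-energy fold of the hairpin, 19 of the 22 bases of the 5p arm pair with the 3p arm, including all 7 bases of its seed. The mature sequences are shown with the seed in capitals because the arms carry different seeds, and the other listed microRNAs named miR-21 are shown because their reads could be confused with those of the 5p arm. The sequences are from RefSeq (GRCm38.p6 table), in which the hairpin is identical to the mm9 sequence.
mmu-miR-21a-5p: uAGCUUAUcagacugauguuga
mmu-miR-21a-3p: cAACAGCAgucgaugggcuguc
mmu-miR-21b: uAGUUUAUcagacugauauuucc
mmu-miR-21c: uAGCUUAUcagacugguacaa

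Of the 1908 listed names, 1603 had a mature sequence in this table. The seed of the 5p arm was carried by 1 of the others, miR-21c, and the seed of the 3p arm by 0. Counted from the 5′ end of miR-21a-5p, miR-21c differs by A16G, G18A, U19C, U20A and G21A, so the first 15 bases are the same. The same count for miR-21b gives C4U, G18A, G21U and A22C, the first of which falls in the seed. Both had few reads. miR-21b was read 7, 7 and 5 times in Sham, WI and IR, and miR-21c had exactly the same number in each library. Whether these are the same reads counted under both names was not tested. At this depth neither differed between libraries beyond counting error (Fisher's exact p from 0.775 to 1), and adding all of these reads to miR-21a-5p would keep it inside the counting intervals given next.

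The guide arm miR-21a-5p was lowest in Sham, higher in WI and highest in IR. Its reads numbered 135871 (Sham), 198057 (WI) and 183894 (IR), in libraries of 3844133, 5064014 and 3784539 microRNA reads. Scaled with TMM factors, which assume that most microRNAs do not differ, its levels were 34311, 40710 and 48089 CPM (counts per 1000000 of the scaled total), with 95% Poisson intervals of 34128 to 34494, 40531 to 40890 and 47869 to 48309. Its share of all microRNA reads was 3.53% in Sham, 3.91% in WI and 4.86% in IR, and its rank by reads moved from 7 to 6 to 5. The 3 intervals did not overlap. They cover counting error only, since each group had 1 library and no molecular identifiers that would remove PCR copies are described.

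The passenger arm miR-21a-3p followed the same order at a far lower level. It was read 738 times in Sham, 1098 times in WI and 1118 times in IR, which is 186, 226 and 292 CPM (95% Poisson intervals 173 to 200, 213 to 239 and 275 to 310). Its rank moved from 100 to 93 to 85 among the 653, 682 and 679 microRNAs with a read. These intervals did not overlap either.

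**Figure D1:**
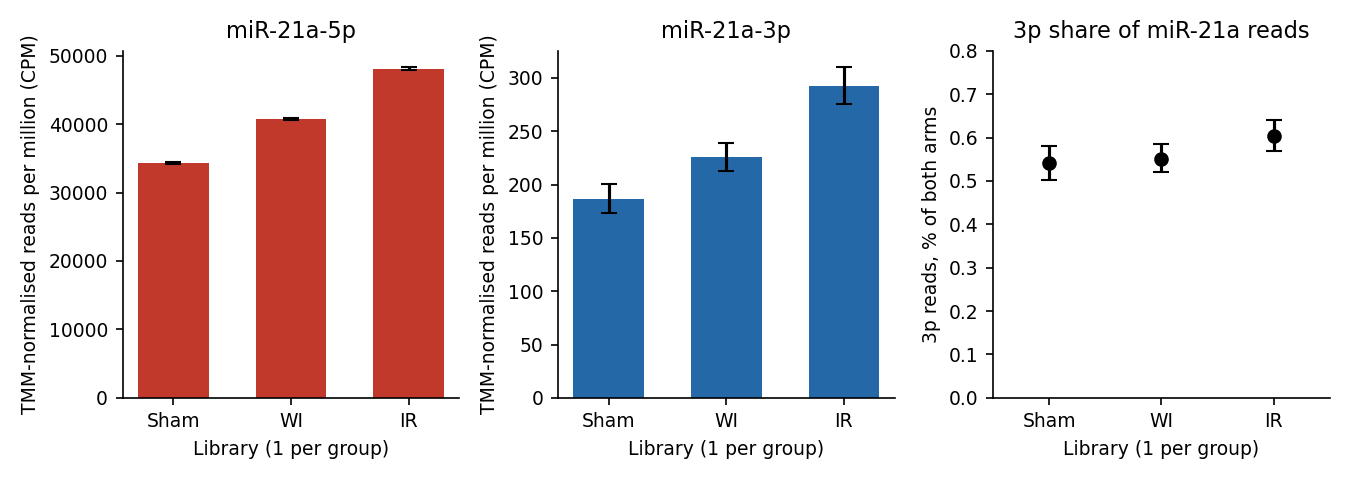
Left and middle: TMM-scaled CPM of miR-21a-5p and miR-21a-3p in the Sham, WI and IR libraries (bars, with 95% Poisson intervals of the reads), and right, reads of the 3p arm as a percentage of both arms, with 95% Wilson intervals. Both arms increase from Sham to WI to IR while the 3p share stays between 0.540% and 0.604%.

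The fold changes were tested with the criteria of the study, which require more than 1.5-fold and Fisher's exact p under 0.01 for a call. The totals scaled by TMM here were microRNA reads, whereas the study describes its totals as mapped reads. The scaling may thus differ from that of the study, and results with genome-aligned totals are given below. With 1 library per group, each p compares a pair of libraries rather than their conditions, and the spread between animals is unknown. After ischemia alone, miR-21a-5p was 1.19-fold higher in WI than in Sham, a log2 fold change of 0.25 (counting SE 0.0051). miR-21a-3p was 1.21-fold higher, a log2 fold change of 0.28 (SE 0.069, Fisher's exact p = 5.39e-05). Both differences exceeded counting error and neither reached the fold threshold, so 0 of the 2 arms were called, where 1.41% of 782 tested microRNAs were called higher in WI and 0.512% lower.

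From WI to IR, miR-21a-5p differed by a further 0.24 on the log2 scale (SE 0.0047), or 1.18-fold, again below the threshold. miR-21a-3p was 1.30-fold higher, a log2 difference of 0.37 (SE 0.061, Fisher's exact p = 1.17e-09). Neither arm was called, against a background of 6.21% called higher and 3.04% called lower among 789 microRNAs. With TMM the ischemic and the reperfusion step of miR-21a-5p were close in size.

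Over both steps, IR against Sham, miR-21a-5p was 1.40-fold higher (log2 fold change 0.49, SE 0.0052) and was not called. Its exact p was too small for the software to represent in all 3 comparisons, so only the fold threshold kept it out. miR-21a-3p was 1.57-fold higher (log2 fold change 0.65, SE 0.068, Fisher's exact p = 9.52e-22) and was called. Thus 1 of the 2 arms was called higher, where the background was 5.68% higher and 1.42% lower of 774 tested. The 95% counting interval of the change of miR-21a-3p ran from 0.52 to 0.78, which spans the threshold of 0.58, so counting error alone does not place it above 1.5-fold. Its call was also lost when a coefficient of variation of 0.2 between libraries of a group was assumed (edgeR exact test, p = 0.12), and kept at 0.1 (exact p = 0.0027).

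**Figure D2:**
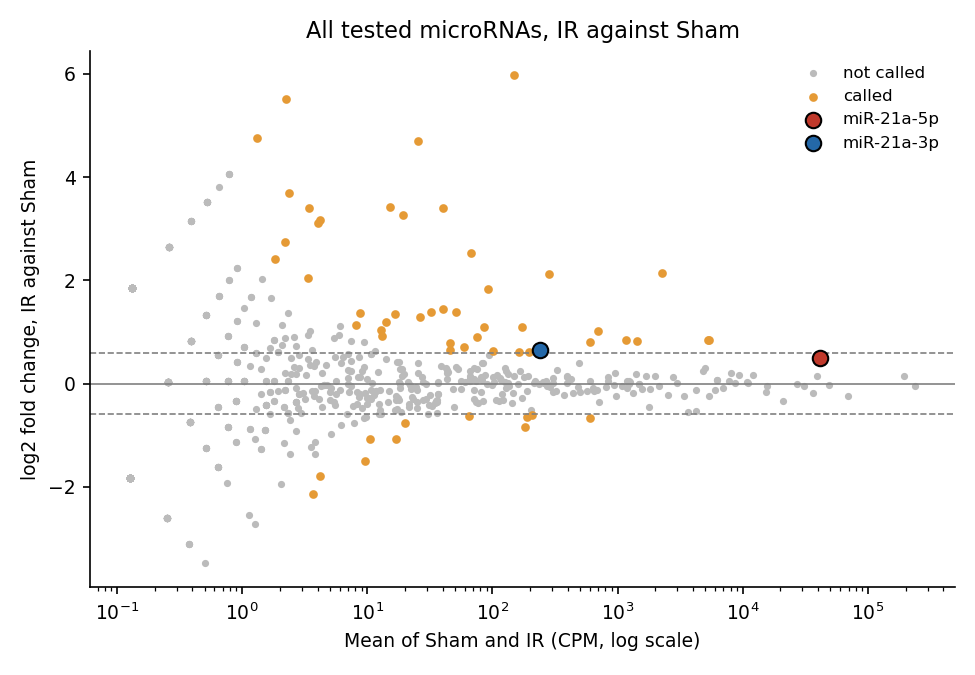
Log2 fold change of IR against Sham for the 774 tested microRNAs, against their mean CPM on a log axis, with called microRNAs in orange, dashed lines at 1.5-fold and the arms of miR-21a enlarged. miR-21a-3p (0.65) lies just above the upper line and miR-21a-5p (0.49) just below it, far to the right.

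The position of the arms among other microRNAs was then described. Of the 279 microRNAs with at least 100 reads over the 3 libraries, miR-21a-5p ranked 41 from the top by log2 fold change in IR against Sham and miR-21a-3p ranked 32. The median of those 279 was 0.01, and 90% of them lay between -0.58 and 1.21. The arms were therefore in the upper part of the distribution but well inside it. In WI against Sham they ranked 61 and 51, and in IR against WI 53 and 43.

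Among abundant microRNAs the guide arm stood further out. Of the 10 with the most reads, miR-21a-5p had the highest log2 fold change in each of the 3 comparisons. In IR against Sham the next of the 10 was miR-22-3p with 0.15, and the lowest was let-7f-5p with -0.33. Of the 50 most abundant, 3 had a higher log2 fold change than miR-21a-5p in IR against Sham. These were miR-6240 with 2.15, the red-cell microRNA miR-486-5p with 0.85, and miR-3107-5p, whose reads were nearly equal to those of miR-486-5p, also with 0.85. In CPM, miR-21a-5p was 13778 higher in IR than in Sham, the second largest difference upward of all listed microRNAs after the 20309 of miR-22-3p.

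**Figure D3:**
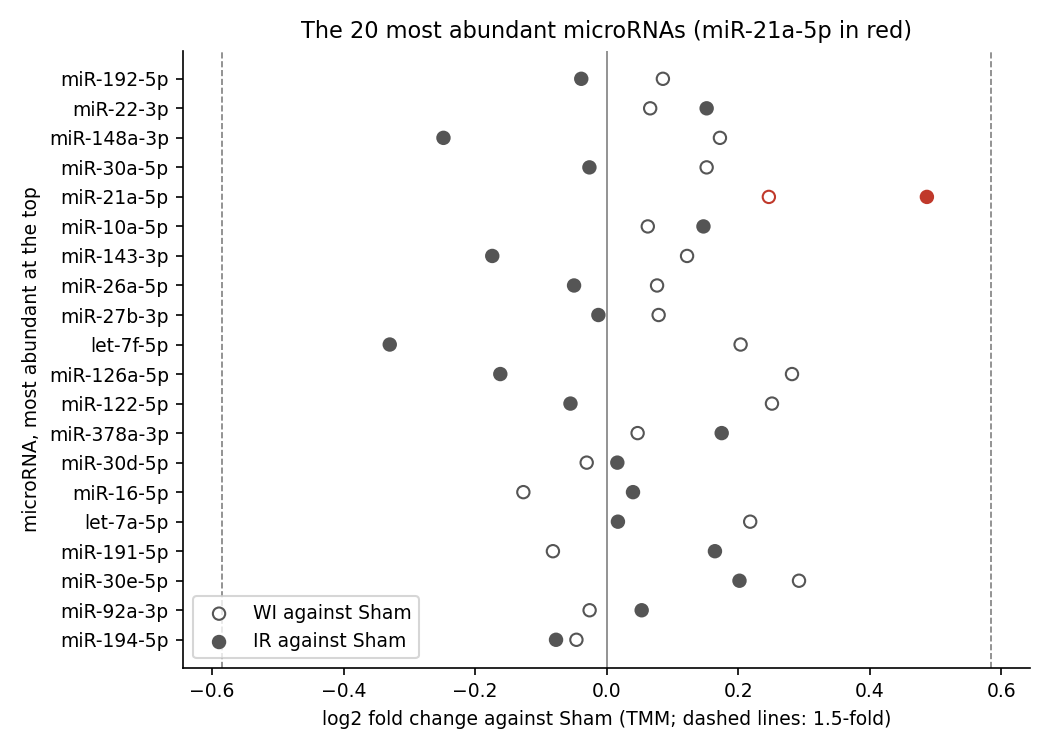
Log2 fold change against Sham of the 20 most abundant microRNAs, ordered by reads over the 3 libraries, for WI (open circles) and IR (filled circles), with dashed lines at 1.5-fold. miR-21a-5p, in red, lies at 0.25 in WI and 0.49 in IR, and in IR the next highest of the 20 is miR-30e-5p at 0.20.

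Ratios of reads within a library do not depend on the scaling between libraries, so miR-21a-5p was also set against single abundant microRNAs. Against miR-192-5p, an abundant microRNA of the liver and gut epithelium, it had 14.1, 15.8 and 20.3 reads per 100 in Sham, WI and IR. Against miR-122-5p, the microRNA that defines hepatocytes, the numbers were 215, 214 and 313 per 100. The ratio to miR-122-5p thus differed by -0.0047 on the log2 scale between WI and Sham (SE 0.0090) and was 0.55 higher in IR than in WI (SE 0.0089). The ratio to miR-192-5p was 0.16 higher in WI than in Sham (SE 0.0054) and 0.36 higher in IR than in WI (SE 0.0051). Like these, miR-194-5p belongs to the list of 4 hepatocyte microRNAs used below. The ratio to miR-194-5p was 0.29 higher in WI than in Sham (SE 0.013) and 0.27 higher in IR than in WI (SE 0.013). Against miR-122-5p the difference thus lay between WI and IR, while against miR-192-5p and miR-194-5p part of it lay between Sham and WI. Within that list, miR-122-5p itself had the largest log2 fold change of WI over Sham, 0.25. The others had 0.086 (miR-192-5p), 0.035 (miR-122-3p) and -0.046 (miR-194-5p).

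The ratios to the other abundant microRNAs were taken in the same way. Their signs follow from the order of log2 fold changes among these microRNAs, so they are not a separate test. In IR against Sham, miR-21a-5p was higher relative to each of the 19 others among the 20 most abundant, by 0.28 to 0.82. In IR against WI it was higher relative to 18 of the 19, with a log2 ratio change of -0.0061 (SE 0.011) against the exception, miR-191-5p. For WI against Sham this held for 16 of the 19. The exceptions were miR-122-5p, miR-126a-5p, an endothelial microRNA, with -0.035 (SE 0.0089), and miR-30e-5p with -0.046 (SE 0.012).

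The scaling between libraries mattered most for the reperfusion step. The study reports that a smaller share of clean small RNA reads aligned to the genome in IR than in Sham or WI. That share does not enter the genome-aligned totals used below. Relative to those totals, the libraries held the fewest microRNA reads in IR and the most in WI. In IR against Sham the log2 fold change of miR-21a-5p was 0.42 to 0.46 with DESeq2 size factors, with microRNA read totals or with totals that left out the 10 most abundant microRNAs. With the totals of all genome-aligned reads it was 0.32. The same scalings gave 0.59 to 0.62 for miR-21a-3p, and 0.48 with genome-aligned totals, at which it was no longer called. In IR against WI, miR-21a-5p was 0.24 with TMM and between 0.26 and 0.31 with the other scalings based on microRNA reads, but turned to -0.084 with genome-aligned totals, and miR-21a-3p became 0.049 (Fisher's exact p = 0.43). In WI against Sham both arms stayed above 0 with all 4 other scalings, at 0.15 to 0.40 for miR-21a-5p. Genome-aligned totals moved the median log2 fold change of microRNAs with at least 10 reads to -0.35 (IR against WI), 0.19 (WI against Sham) and -0.16 (IR against Sham), from values between -0.03 and 0.04 with TMM. Relative to that median, miR-21a-5p was 0.26 higher in IR against WI and 0.47 higher in IR against Sham. A new total shifts all microRNAs nearly alike, so these 2 differences hardly depend on the scaling and do not test it. The level of miR-21a-5p was thus higher in IR than in WI relative to other microRNAs, but not per genome-aligned read.

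**Figure D4:**
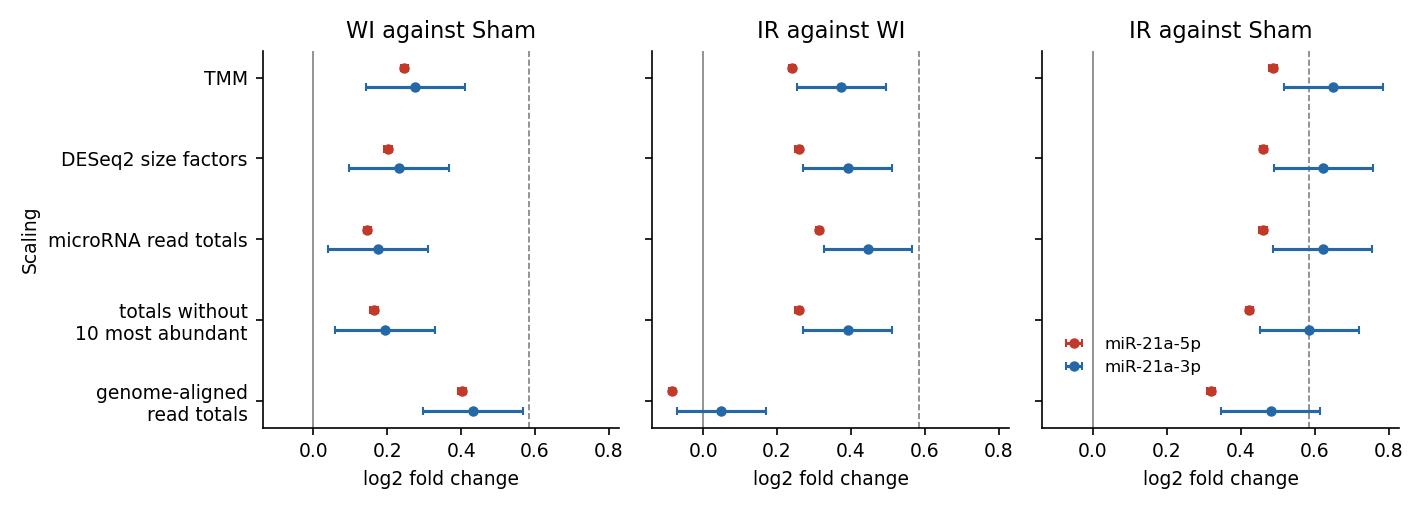
Log2 fold changes of miR-21a-5p (red) and miR-21a-3p (blue) in the 3 comparisons under 5 scalings of the libraries, with 95% counting intervals and a dashed line at 1.5-fold. With genome-aligned totals the values of IR against WI drop to -0.084 and 0.049, and those of WI against Sham increase to 0.40 and 0.43.

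The arms were compared with each other to see whether guide and passenger moved together. For each read of the 3p arm there were 184, 180 and 164 reads of the 5p arm in Sham, WI and IR. The 3p arm held 0.540%, 0.551% and 0.604% of the reads of both arms, with 95% Wilson intervals of 0.503 to 0.581 (Sham), 0.520 to 0.585 (WI) and 0.570 to 0.641 (IR). The interval of IR overlaps those of Sham and WI. The log2 ratio of 3p to 5p reads shifted by 0.03 between WI and Sham (SE 0.069, Fisher's exact p = 0.686), by 0.13 between IR and WI (SE 0.061, Fisher's exact p = 0.0313) and by 0.16 between IR and Sham (SE 0.069, Fisher's exact p = 0.0185). None of the 3 shifts reached p under 0.01 or 1.5-fold. The 95% counting interval of the shift in IR against Sham was 0.03 to 0.30, so a shift of the arms by 1.5-fold lies outside it.

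The same test on every hairpin with at least 10 reads from each arm called a shift for 4.46% of 112 hairpins (WI against Sham), 6.31% of 111 (IR against WI) and 3.6% of 111 (IR against Sham). In IR against Sham, 76 of the 111 hairpins shifted more than miR-21a in either direction and 34 shifted less. Hairpins with few reads from an arm are among the 76, so a larger shift can be counting error, as with 0.81 (SE 0.93) for miR-107. The strong asymmetry of the arms is itself common. In Sham, 33.3% of 129 hairpins with at least 100 reads had a smaller share of reads from their minor arm, and the median minor share was 1.95%.

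**Figure D5:**
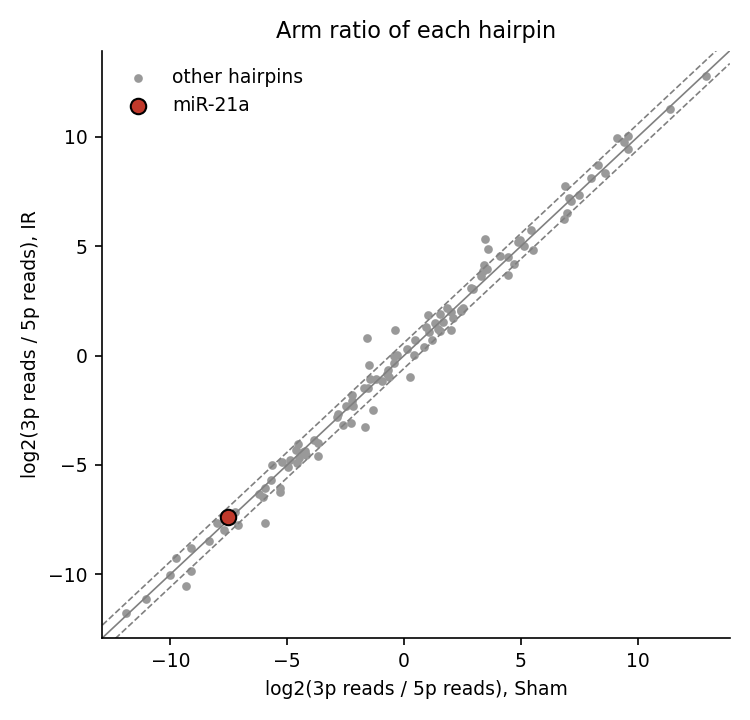
Log2 ratio of 3p to 5p reads in Sham (x axis) and IR (y axis) for the 111 hairpins with at least 10 reads from each arm, with 0.5 reads added to each count, a solid line at equal ratios and dashed lines at a 1.5-fold shift. miR-21a, in red, lies among the 5p-dominated hairpins and inside the dashed lines.

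Other microRNAs linked to injury, inflammation or hypoxia were described for context, as a list of 16 without miR-21a. All 16 could be tested. In WI against Sham 0 of the 16 were called, where the background was 1.41% higher and 0.512% lower, and their median log2 fold change was -0.01 against 0.05 for all microRNAs tested. In IR against Sham 3 were called higher and 0 lower, beside a background of 5.68% and 1.42%, with a list median of 0.08 against 0.04. In IR against WI 3 were called higher and 1 lower, beside 6.21% and 3.04%, with a median of 0.05 against -0.01. The 3 higher ones were the same in both, miR-132-3p, miR-212-3p and miR-223-3p. miR-132-3p and miR-212-3p are made from 1 cluster that responds to CREB signalling, and miR-223-3p is a microRNA of neutrophils and other myeloid cells.

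In WI these 3 were at or below Sham. miR-132-3p was at 28.3, 24.9 and 74.0 CPM in Sham, WI and IR, a log2 fold change of 1.38 in IR against Sham (SE 0.16). miR-212-3p had 9.09, 4.93 and 17.3 CPM, and miR-223-3p 110, 109 and 236. Both arms of miR-21a lay above Sham in WI, and the difference between them and these 3 was not tested. The 1 called lower, in IR against WI, was miR-34a-5p, a target of p53, with 34.1, 44.0 and 29.3 CPM. Its log2 fold change of -0.59 (SE 0.17, Fisher's exact p = 0.00043) lay at the threshold itself, and 3 rather than 4 of the list were called in IR against WI with DESeq2 size factors, with microRNA read totals, without the 10 most abundant or with a pseudocount of 1 CPM. The inflammation-induced miR-146a-5p, a target gene of NF-κB, had 1469, 1478 and 1470 CPM, and miR-155-5p, an activation microRNA of lymphocytes and macrophages, had 20.2, 16.6 and 14.4. The hypoxia microRNA miR-210-3p had 34.1, 40.7 and 43.1 CPM, and its 0.34 in IR against Sham (SE 0.17, Fisher's exact p = 0.043) did not pass the criteria. With an assumed coefficient of variation of 0.4, 0 of the 16 were called in any comparison. At that setting few were called among all tested microRNAs. These were 1 of 782 (WI against Sham), 6 of 789 (IR against WI) and 10 of 774 (IR against Sham), so the 0 says little about the list.

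The cell types that could contribute miR-21a were checked through their known microRNAs. The liver label was met by miR-122-5p, at 15960, 18999 and 15364 CPM in Sham, WI and IR, and 0 of 4 hepatocyte microRNAs were called in any comparison. The 4 erythroid microRNAs were all called higher in IR against Sham, where 5.68% of all tested microRNAs were called higher and 1.42% lower, and their summed level was 5055, 4781 and 9020 CPM. Of the 5 leukocyte microRNAs, miR-223-3p was called higher in IR, while the summed level of the list was 3094, 3054 and 2806 CPM. miR-142-3p, which marks leukocytes in general, had 110, 152 and 119 CPM. The 3 muscle microRNAs summed to 6.82, 23.8 and 75.1 CPM, nearly all from miR-133a-3p, and miR-1a-3p was at 0 reads in Sham. The endothelial list of 2 (19267, 22783 and 17568 CPM) and the stromal list of 4 (39455, 42874 and 35008 CPM) had 0 members called. For lists this short, that too is near the shares over all tested microRNAs. No defining marker was at 0 in all 3 libraries. The erythroid and muscle lists were thus higher in IR, as miR-21a was. Of the leukocyte list miR-223-3p was higher, but the list as a whole was not. In IR against Sham its other log2 fold changes were 0.11 (miR-142-3p), -0.22 (miR-142-5p), -0.32 (miR-150-5p) and -0.49 (miR-155-5p). The part of any of these cell types in the difference of miR-21a was not tested.

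The microRNAs with the most similar profile were named by their distance from each arm in the pair of log2 fold changes against Sham, over 3 libraries and among 278 microRNAs with at least 100 reads. For miR-21a-5p they were miR-450b-5p (distance 0.07), miR-574-5p (0.09), miR-1968-5p (0.15), miR-210-3p (0.15) and let-7i-3p (0.16), and the other arm, miR-21a-3p, came sixth (0.16). All 5 had far fewer reads, at most 198 in a library, so their own counting errors (SE 0.16 to 0.36) exceed these distances. For miR-21a-3p the nearest was the erythroid miR-144-3p (0.15), followed by miR-21a-5p (0.16), miR-23b-3p (0.21), miR-1968-5p (0.21) and miR-450b-5p (0.22). Of these, miR-23b-3p was measured precisely, with 839, 1053 and 1516 CPM, log2 fold changes of 0.33 (SE 0.032) and 0.85 (SE 0.031) over Sham. Like the other neighbours named here, miR-23b-3p shares with both arms of miR-21a the order Sham, WI, IR. Neighbours were chosen by these same fold changes, so the shared order is not a separate result.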

How the data were processed

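The authors trimmed small RNA reads, aligned them with Bowtie 0.12.7, allowing 1 mismatch in the seed of the read, and counted mature microRNAs with miRDeep2, and the deposited values are these raw read counts. The methods name mm9 and the labels mm10 as the genome. The counts hold no coordinates, and positions here are from the mm9 annotation. Groups were taken from sample titles. Counts were scaled by TMM, the trimmed mean of log ratios (edgeR 4.0.16, R 4.3.3), with 1.03, 0.961 and 1.01 for Sham, WI and IR. These factors multiplied the microRNA read totals. Log2 fold changes used a pseudocount of 0.1 CPM, and SE came from the reads. Two-sided Fisher's exact tests (scipy 1.17.1) were run on all microRNAs with at least 1 read in either library and on the arms of each hairpin. The edgeR quasi-likelihood test needs replicates and could not be fitted. The floor of 3 reads was 0.617 to 0.785 CPM. The hairpin was folded with RNAfold 2.7.2. The computation of the tests was checked on simulated counts, of which no value is used here. Alternatives changed the scaling (DESeq2 1.42.0 among them), pseudocount, read minimum, depth, thresholds and test. The members and lists were chosen with earlier results of these data known. By rule, the text names microRNAs that share a seed or the name miR-21, the 5 nearest profiles, called members of the injury list and defining markers. The other microRNAs were named after their values were seen.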

Additional observations from a re-analysis of the deposited data

How the results depend on the processing

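No paired analysis was possible because each group had 1 library, and for the same reason no replicate could be left out. Of 72 recomputed differences of the arms, 67 kept direction and call. Alternatives that changed only the read minimum, thresholds or test left the log2 fold changes as they were, so direction could not change there. Nor was the fold limit lowered in any of these, so an arm below it could not gain a call. The only call, miR-21a-3p in IR against Sham, was kept in 8 of 12 alternatives. With genome-aligned totals, miR-21a-5p in IR against WI became -0.084 and miR-21a-3p in IR against Sham, at 0.48, lost its call. The latter, at 0.65, also lost it at a fold change above 2 and at an assumed coefficient of variation of 0.2 or 0.4, and with totals without the 10 most abundant it stayed called at 0.59, at the threshold itself. The causes were not tested.

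Calls numbered 15 for WI against Sham (11 higher, 4 lower), 73 for IR against WI (49 and 24) and 55 for IR against Sham (44 and 11). The study reports more differentially expressed microRNAs than this in both comparisons with Sham, and the reason for the gap was not tested. Genome-aligned totals gave 25 (23 and 2), 111 (38 and 73) and 62 (35 and 27). In WI against Sham the split became 10 to 6 under DESeq2 size factors, 7 and 10 with microRNA read totals and 8 and 9 without the 10 most abundant. A fold change above 2 gave 9 (WI against Sham) and 35 (IR against Sham). In the same order as above, a coefficient of variation of 0.2 gave 4, 33 and 24, and of 0.4 gave 1, 6 and 10. Of the injury list, 1 was called in WI against Sham with microRNA read totals, and 0 in IR against WI and IR against Sham at 0.4. Arm shifts in WI against Sham numbered 5, and 3 with adjusted p under 0.05 or above 2-fold.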
